A study of Mus musculus with 6 samples.

Results

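The transcripts described here come from 10 G protein-coupled receptor genes of T cells, Gpr15, Gpr18, Gpr55, Gpr65, Gpr83, Gpr132, Gpr146, Gpr171, Gpr174 and Gpr183. They were taken by symbol from a count table of 28430 genes, and all 10 were present and had enough reads to be tested. Gpr65 and Gpr132 lie on mouse chromosome 12 and Gpr18 and Gpr183 as neighbours on chromosome 14, and the rest are scattered over chromosomes 1 (Gpr55), 3 (Gpr171), 5 (Gpr146), 9 (Gpr83), 16 (Gpr15) and X (Gpr174). Bulk RNA-Seq had been performed on hepatic CD4+ T cells of mice after flow sorting, with 3 biological replicates in each of 2 groups, to ask how CD4+ T cells that lack Nr4a1 and Nr4a2 differ in steatohepatitis. One group was labelled dKO and carried floxed alleles of both Nr4a1 and Nr4a2 with Cre recombinase driven by the Cd4 promoter. Because T cells pass through a stage that expresses Cd4, this Cre acts in CD8+ T cells as well as in CD4+ T cells, including regulatory T cells (Tregs). The other was labelled WT. Mice of both groups were fed a choline-deficient, high-fat diet low in methionine, so no library came from a liver on normal chow. The age and sex of the animals and whether the WT mice carried floxed alleles or Cre are not stated for these libraries.

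G protein-coupled receptors cross the membrane repeatedly and pass the binding of a ligand to heterotrimeric G proteins, whose alpha subunits raise or lower cyclic AMP, open calcium stores or activate the small GTPase RhoA. On T cells, members of this group read protons, lysophospholipids, oxysterols and peptides in the tissue, and they are known for setting where T cells sit and how strongly they respond. Several of their ligands are products of lipid metabolism, of which the liver is a main site.

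Each library held between 5747744 and 11078184 counted reads. Levels are given as normalised CPM, the reads of a gene per 1000000 counted reads after scaling by the trimmed mean of M values (TMM), and differences as log2 fold changes of dKO over WT with their standard errors (SE). A gene was called higher or lower where edgeR's quasi-likelihood test gave a Benjamini-Hochberg adjusted p under 0.05 over the 15694 genes tested. Nr4a2, one of the deleted genes, went against the labels, with 477, 539 and 391 CPM in the libraries labelled dKO and 159.5, 284 and 234 CPM in those labelled WT (log2 fold change 1.05 ± 0.21, edgeR adjusted p = 0.0308; the call was lost without WT 3, dKO 1 or dKO 2, with adjusted p up to 0.128). Nr4a1 read 711, 1033 and 639 CPM in the libraries labelled dKO and 328, 676 and 818 CPM in those labelled WT and was not called (log2 fold change 0.39 ± 0.37, 0.08 to 0.66 with 1 library left out). With the Xist level, described next, as a covariate chosen after the data were seen, Nr4a1 was called higher at 1.23 (edgeR adjusted p = 0.000668). Which exons the deletion removes is not stated, so these whole-gene counts do not check it, and every direction below rests on the labels. Nr4a3, the family member not deleted, had 513, 479 and 208 CPM in the libraries labelled dKO and 152, 172 and 213 CPM in those labelled WT. It was not called (log2 fold change 1.16 ± 0.37, edgeR adjusted p = 0.170), and 2 of 19 alternative fits called it higher. Libraries of one group also differed in Xist, the RNA of the inactive X chromosome, at 1892, 793 and 1907 CPM in the libraries labelled dKO and 1649.6, 133 and 96.8 CPM in those labelled WT, and Y-linked Ddx3y ran the other way except in the library labelled dKO 2, which held both. Xist was also uneven between the groups, with means of 1531 CPM in dKO and 626 CPM in WT, without a call (edgeR adjusted p = 0.686). Its level is thus partly confounded with the labels and cannot be fully told apart from them. T cell identity markers were present in every library with 0 of 7 called, and 6 of 10 Treg markers were higher in dKO and none lower, their summed level being 4168 to 5347 CPM in the libraries labelled dKO, against 1545 to 2463 CPM in those labelled WT. Both CD8 markers were also higher in dKO, with a summed level of 295 to 337 CPM in the libraries labelled dKO, against 198 to 236 CPM in those labelled WT. In bulk RNA, fewer cells of a type and less RNA per cell cannot be told apart.

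Of the 10 receptors, 1 was called higher in dKO and 0 were called lower by edgeR, beside 3.31% of all genes tested that were called in either direction (2.15% higher and 1.17% lower). At an unadjusted p under 0.05, 4 of the 10 passed (3 higher and 1 lower), beside 19.2% of all genes tested. DESeq2 called 3 of the 10 higher and 0 lower, beside 509 of all 15694 genes tested that it called higher. These 509 were 67.0% of the genes that DESeq2 called in either direction. The receptor called by edgeR was Gpr65, the proton sensor, which was 2.12-fold higher. For 3 receptors no library of one group fell within the range of the other, above in dKO for Gpr65 and Gpr55 and below in dKO for Gpr15, beside 25.0% of all genes tested, so the share without overlap was near the background. The median log2 fold change of the 10 was 0.41, beside -0.01 over all genes tested, and 7 of the 10 lay above 0. The median of the 10 was 0.21 without WT 2 and 0.15 with the Xist level as a covariate.

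**Figure D1:**
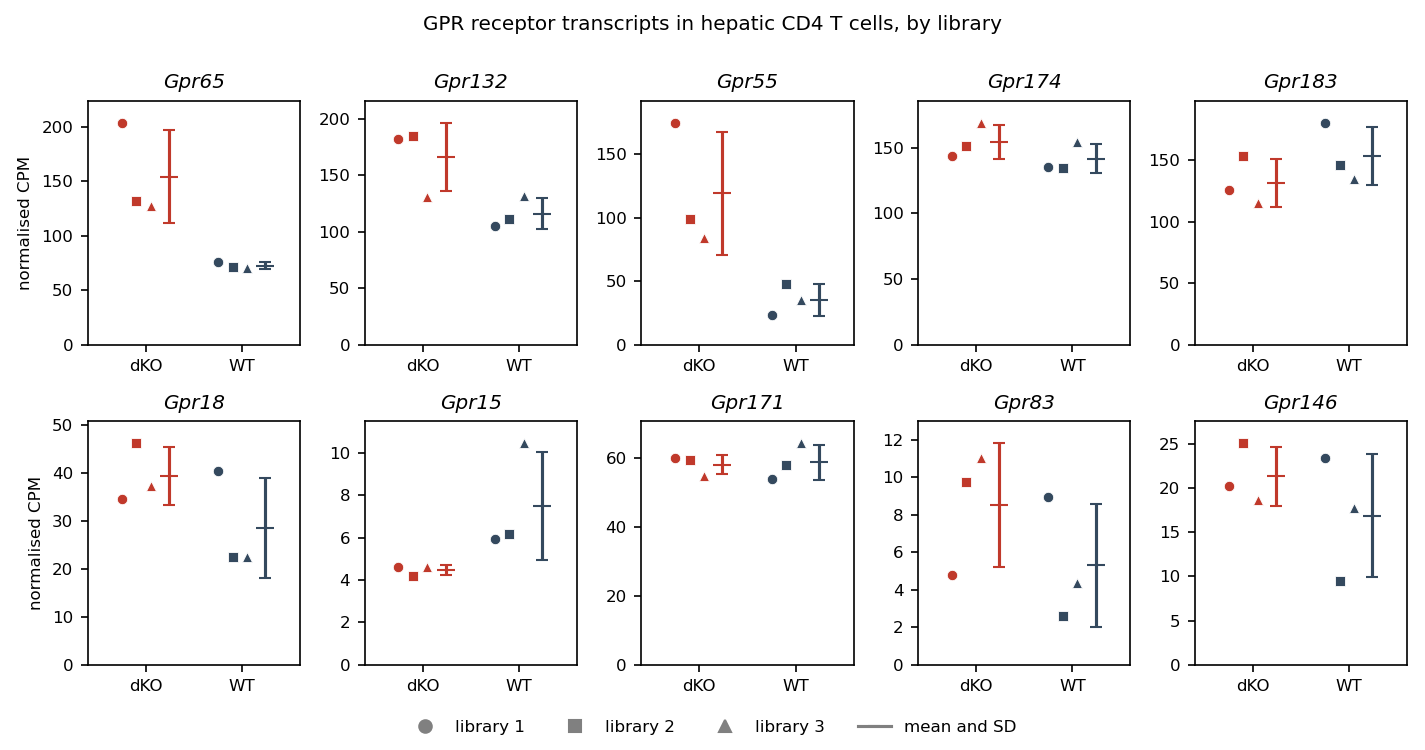
Normalised CPM of the 10 receptor genes in each library, dKO left and WT right in each panel, with points for libraries and bars for mean and SD (n = 3 each); each panel has its own linear scale from 0. Gpr65 and Gpr55 lie higher in all 3 libraries labelled dKO than in any labelled WT, and Gpr15 lies lower.

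Gpr65 (also TDAG8) is a receptor activated by extracellular protons that couples to the stimulatory G protein and raises cyclic AMP when the tissue turns acidic. Its level was 203, 131 and 127 CPM in the libraries labelled dKO 1, 2 and 3, against 75.9, 71.6 and 70.3 CPM in those labelled WT 1, 2 and 3. The WT libraries lay close together, every dKO library lay above them, and dKO 1 stood well above the other two. The means were 154 ± 42.8 CPM in dKO and 72.6 ± 2.94 CPM in WT (SD, n = 3 each). The log2 fold change was 1.08 ± 0.17 (SE; 95% interval 0.71 to 1.46; edgeR adjusted p = 0.00912). With any 1 library left out it stayed called, at 0.83 to 1.20 with adjusted p of 0.00812 to 0.044 by edgeR. The call was lost in 1 of 19 alternatives, the fit with the Xist level as a covariate, which gave 0.97 at an edgeR adjusted p of 0.0569 and was chosen after the data were seen. Another of the 19, on reads recovered from a CPM sheet, used the same counts and so repeats the main fit.

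Gpr132 is a receptor of lymphocytes and macrophages whose surface level and signalling respond to lysophosphatidylcholine and oxidised fatty acids. It read 182, 185 and 131 CPM in the libraries labelled dKO, against 105, 112 and 131 CPM in those labelled WT. Libraries dKO 1 and dKO 2 lay above every WT library, and dKO 3 lay level with WT 3, so the groups overlapped. This gave a log2 fold change of 0.51 ± 0.14 (95% interval 0.20 to 0.82), which edgeR did not call (adjusted p = 0.0709). Without the library dKO 3 it was 0.65 and was called (edgeR adjusted p = 0.0238). It was called in 5 of the 19 alternatives, DESeq2 and the Xist covariate among them.

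Gpr55 is a receptor for lysophosphatidylinositol that couples to G proteins acting on RhoA and calcium. Its level was 174, 99.02 and 84.04 CPM in the libraries labelled dKO, against 22.97, 47.9 and 35.1 CPM in those labelled WT. All 3 dKO libraries lay above all 3 WT libraries, with about the same ratio of highest to lowest library within dKO (2.08) as within WT (2.09). This was the largest fitted difference among the 10 receptors, at 1.75 ± 0.40 on the log2 scale (95% interval 0.72 to 2.77), and it missed the threshold (edgeR adjusted p = 0.098). DESeq2 called it at an adjusted p of 0.00371, and limma-voom at 0.0128, and it was called in 5 of 19 alternatives, each of them another test or the non-robust fit. By edgeR, leaving out 1 library never brought it past the threshold (adjusted p 0.105 to 0.21). The long noncoding gene Gm41905 overlaps Gpr55 and was called higher, at 6.05, 4.88 and 2.42 CPM in the libraries labelled dKO and 0.688, 1.73 and 1.31 CPM in those labelled WT (edgeR adjusted p = 0.0419, at most 34 reads in a library; lost without WT 1, WT 3, dKO 1 or dKO 2, with adjusted p up to 0.201). Whether counting used strand is not stated, so reads of the 2 genes cannot be told apart.

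The promoters of these 3 receptors are shown because the study deleted nuclear receptors of the Nr4a family, which bind the NGFI-B response element AAAGGTCA. Sequences are from RefSeq on build GRCm38.p6, where 9 of the 10 receptors had an entry, in 11 promoter windows of 300 bases (250 before the start of transcription and 50 after). Each line runs 5′ to 3′ on the strand of the gene over the 250 bases before the start and ends with the first transcribed base in capitals, and capitals within the line mark the shorter half-site AGGTCA. The windows lie at chr12:98268385-98268635 on the plus strand for Gpr65, chr1:85961055-85961305 on the minus strand for Gpr55 and chr12:112860916-112861166 on the minus strand for Gpr132. For Gpr65 the start used is the outer end of the RefSeq gene span, and for Gpr55 and Gpr132 it is not.
Gpr65: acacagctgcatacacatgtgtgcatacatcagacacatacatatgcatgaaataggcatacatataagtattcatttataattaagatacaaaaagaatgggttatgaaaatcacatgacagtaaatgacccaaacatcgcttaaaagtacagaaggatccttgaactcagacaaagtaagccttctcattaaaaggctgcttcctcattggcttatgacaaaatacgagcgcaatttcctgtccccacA
Gpr55: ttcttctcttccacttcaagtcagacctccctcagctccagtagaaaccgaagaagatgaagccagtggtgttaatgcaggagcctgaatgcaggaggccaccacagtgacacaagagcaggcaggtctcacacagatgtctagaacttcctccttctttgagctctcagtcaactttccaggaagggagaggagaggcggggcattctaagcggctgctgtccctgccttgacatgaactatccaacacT
Gpr132: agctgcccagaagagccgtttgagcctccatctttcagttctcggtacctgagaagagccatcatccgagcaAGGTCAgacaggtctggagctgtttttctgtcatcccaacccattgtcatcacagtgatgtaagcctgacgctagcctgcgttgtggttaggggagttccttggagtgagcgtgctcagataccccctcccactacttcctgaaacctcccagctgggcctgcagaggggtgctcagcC
On either strand, AAAGGTCA was in 0 of the 11 windows of the receptors and in 495 of 32851 promoters of all genes (1.51%). AGGTCA, which is part of the longer element, was in 1 of the 11 windows and in 16.3% of all promoters. That window was the one of Gpr132, with the match starting 178 bases before the start of transcription used here. A match is a description of the letters, and the absence of one says only that they are not in this window.

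Gpr174 is an X-linked receptor for lysophosphatidylserine that couples to the stimulatory G protein and restrains Treg activity in mice. It read 144, 151 and 169 CPM in the libraries labelled dKO, against 136, 135 and 155 CPM in those labelled WT. The groups overlapped, and no library stood apart from its group. The log2 fold change was 0.13 ± 0.11 (95% interval -0.11 to 0.36), so a change beyond 0.36 upward lies outside this interval (edgeR adjusted p = 0.58). P2ry10, a related X-linked receptor for lysophosphatidylserine, was called higher, at 1247, 959.6 and 702 CPM in the libraries labelled dKO and 517, 454 and 476 CPM in those labelled WT (log2 fold change 1.01 ± 0.18, edgeR adjusted p = 0.0149). It kept its call in 14 of 19 alternatives and lost it with the Xist covariate and without WT 2, WT 3, dKO 1 or dKO 2 (edgeR adjusted p up to 0.0751), and the difference between P2ry10 and Gpr174 was not tested.

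Gpr183 (also EBI2) is the receptor for oxysterols made from cholesterol and guides lymphocytes along their gradients in lymphoid tissue. Its level was 126, 153 and 115 CPM in the libraries labelled dKO, against 179.9, 146 and 135 CPM in those labelled WT. The highest library was WT 1 and the lowest dKO 3, with dKO 2 above WT 2 and WT 3, so the groups overlapped. For Gpr183 the log2 fold change was -0.22 ± 0.14 (95% interval -0.52 to 0.07; edgeR adjusted p = 0.404) and it was called in none of the 19 alternatives. Ch25h and Cyp7b1, enzymes that make its oxysterol ligand, had at most 0.247 CPM in any library, too few reads to be tested.

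Gpr15 is a homing receptor that brings T cells, Tregs among them, to the lining of the large intestine. It was scarce, at 4.63, 4.203 and 4.63 CPM in the libraries labelled dKO, against 5.91, 6.18 and 10.4 CPM in those labelled WT. Every dKO library lay below every WT library, and WT 3 stood well above the other 2. Its log2 fold change was -0.76 ± 0.27 (95% interval -1.34 to -0.18) and was not called (edgeR adjusted p = 0.142). Without WT 3 it was -0.43. Between 25 and 112 reads a library stand behind these values.

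Gpr18 is a receptor of lymphocytes that supports the intraepithelial T cells of the mouse intestine. It read 34.7, 46.2 and 37.3 CPM in the libraries labelled dKO, against 40.6, 22.5 and 22.6 CPM in those labelled WT. WT 1 lay inside the dKO range and WT 2 and WT 3 lay below all 3 dKO libraries. With all libraries the log2 fold change was 0.48 ± 0.24 and was not called (edgeR adjusted p = 0.329), and without WT 1 it was 0.80 and was called (adjusted p = 0.00485). WT 1 was also the library of its group with the most Xist and the highest level of the naive T cell marker Lef1 (327, 104 and 179 CPM in WT 1, 2 and 3). Lef1 had 187, 193 and 163 CPM in the libraries labelled dKO. Klf2, of the same list of naive markers, ran the other way and was lowest in WT 1 (582, 951 and 1442 CPM in WT 1, 2 and 3). With the Xist level as a covariate the log2 fold change of Gpr18 was 0.13 (edgeR adjusted p = 0.805), and the part of the naive markers was not tested.

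Gpr83 is a receptor whose transcript marks Tregs in mice. It read 4.80, 9.75 and 11.01 CPM in the libraries labelled dKO, against 8.94, 2.59 and 4.38 CPM in those labelled WT. The groups overlapped through dKO 1, which was low, and WT 1, which was high. The log2 fold change was 0.73 ± 0.46 (95% interval -0.34 to 1.80; edgeR adjusted p = 0.447), with 21 to 100 reads a library, and none of the alternatives called it. It was 0.42 to 1.28 with 1 library left out, lowest without WT 2 and highest without WT 1 (adjusted p = 0.0583), and 0.18 with the Xist covariate (edgeR adjusted p = 0.884). Foxp3, the transcription factor that defines Tregs, had 223, 185 and 172 CPM in the libraries labelled dKO and 65.7, 109.7 and 84.8 CPM in those labelled WT and was called higher (log2 fold change 1.16 ± 0.18, edgeR adjusted p = 0.00954).

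Gpr171 is a receptor for a neuropeptide that dampens T cell activation. It was the most even of the 10 within dKO, at 59.97, 59.3 and 54.7 CPM in the libraries labelled dKO, against 53.9, 57.9 and 64.1 CPM in those labelled WT. The WT libraries spanned the dKO libraries. The log2 fold change was -0.02 ± 0.11 with a 95% interval of -0.25 to 0.21 (edgeR adjusted p = 0.946), and its sign turned in 3 of 19 alternatives. Gpr146, a receptor known for controlling cholesterol output by liver cells in mice, read 20.3, 25.05 and 18.6 CPM in the libraries labelled dKO, against 23.4, 9.51 and 17.7 CPM in those labelled WT. Its WT libraries were the more scattered, with WT 2 lowest, and the groups overlapped (log2 fold change 0.34 ± 0.29, edgeR adjusted p = 0.597). It was 0.06 without WT 2, 0.61 without WT 1 and 0.05 with the Xist covariate, called in none of these.

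**Figure D2:**
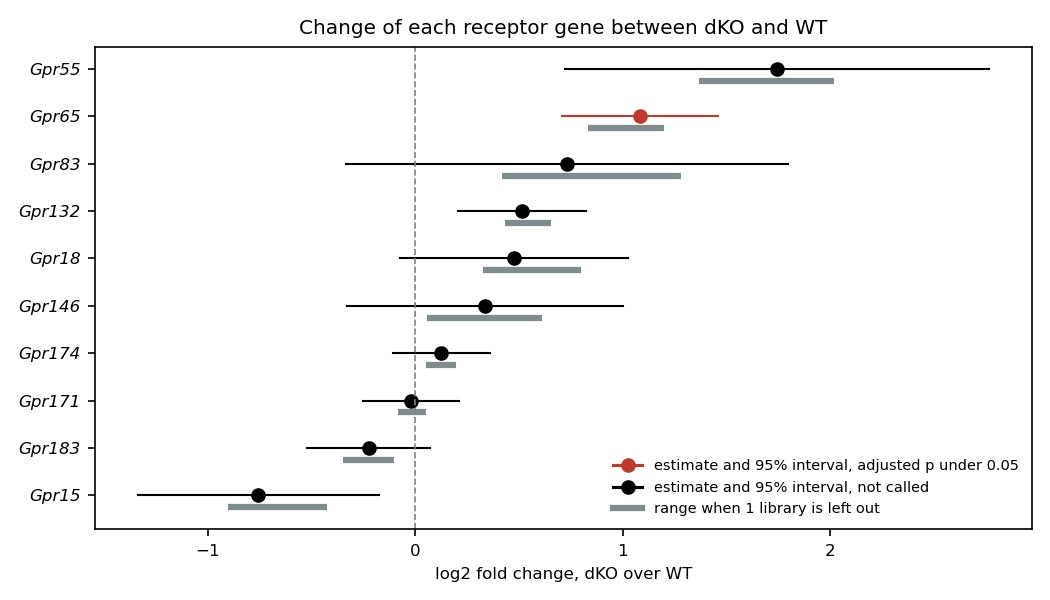
Log2 fold change of dKO over WT for each receptor gene (points) with its 95% interval from edgeR (lines), and below each the range when 1 of the 6 libraries is left out (grey bars). Gpr65 (red) is the receptor called, Gpr55 has the largest estimate with a wider interval, and Gpr171 lies at 0.

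Summed over the 10 receptors, the level was 954, 864 and 753 CPM in the libraries labelled dKO, against 652, 611 and 645 CPM in those labelled WT. Without Gpr55, Gpr65 and Gpr132 the sum was 418 ± 28.3 CPM in dKO and 412 ± 34.5 CPM in WT (SD, n = 3 each). The higher sum in dKO therefore lay in these 3 transcripts, of which Gpr55 added 83.8 CPM to the mean, Gpr65 81.5 CPM and Gpr132 50.1 CPM. These 3 were picked for their values, so the split is a description.

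To compare levels between genes, CPM was divided by the length of all annotated exons in kilobases (GENCODE annotation of GRCm38). In WT the most abundant receptor per kilobase was Gpr183 at a mean level of 53.2 CPM per kilobase, followed by Gpr132 at 42.7 and Gpr65 at 35.1. In dKO the order of these 3 was the reverse, with Gpr65 at 74.5 CPM per kilobase, Gpr132 at 61.2 and Gpr183 at 45.5. Libraries of neighbours in the order overlapped in 7 of 9 pairs in dKO and 5 of 9 in WT. In dKO the first 7 receptors formed a run of overlapping neighbours, from Gpr65 through Gpr55 at 32.02 to Gpr171 at 26.1 CPM per kilobase, clear of the 3 scarce ones. Gpr55 was the fourth in dKO and the seventh in WT, where its level was 9.49 CPM per kilobase. Gpr15, Gpr146 and Gpr83 were the 3 lowest in both groups, at 2.74, 3.14 and 1.67 CPM per kilobase in dKO, against 4.58, 2.49 and 1.04 CPM per kilobase in WT.

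**Figure D3:**
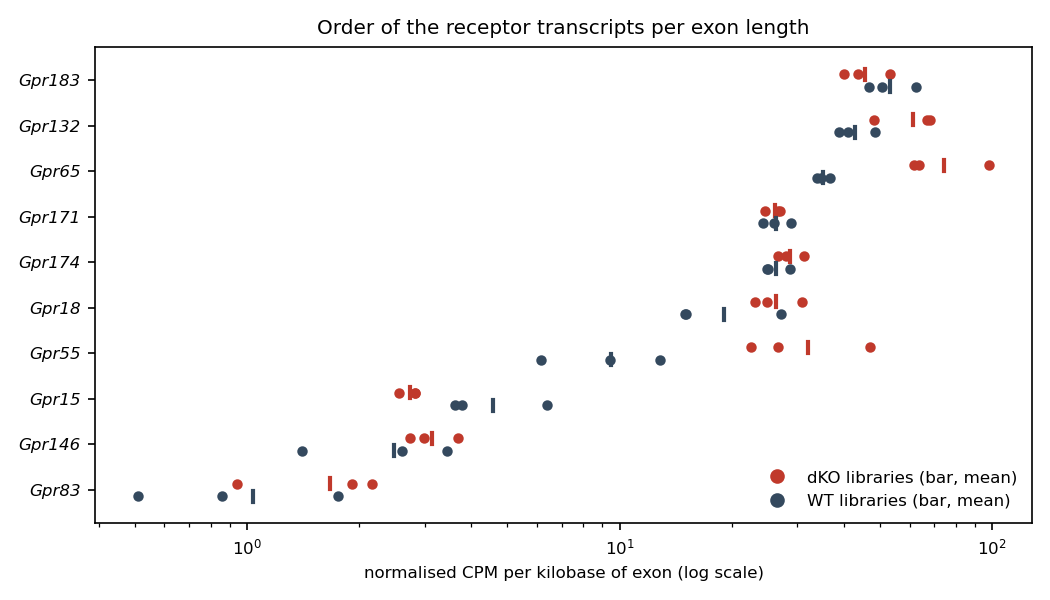
Normalised CPM per kilobase of exon (log scale) for each receptor, with dKO libraries above WT libraries in each row and bars at the means (n = 3 each). Receptors run from the highest WT mean at the top to the lowest at the bottom; Gpr65 and Gpr55 are the transcripts whose dKO libraries lie apart to the right of their WT libraries.

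The rest of the signalling path was read from 7 lists of ligand enzymes, related receptors, G protein subunits, regulators and effectors, of which 78 genes were tested. Among them 4 were called higher in dKO and 1 lower (6.41%, beside 3.31% of all genes), with a median log2 fold change of -0.03 and list medians between -0.08 and 0.20. No gene was called among 8 enzymes and precursors of ligands, 9 alpha subunits, 11 regulators of G protein signalling (RGS) or 8 receptor kinases and arrestins by edgeR. At an unadjusted p under 0.05 these lists held 1, 2, 4 and 0 genes in the same order, and DESeq2 called Gnaq among the alpha subunits, Rgs10 among the RGS genes and 0 in the other lists. Of 11 other proton, lysolipid and sphingosine phosphate receptors, P2ry10 alone was called by edgeR, and DESeq2 also called Lpar6 lower. In the list of 9 beta and gamma subunits, Gnb4, a beta subunit, was called higher, with 36.7, 42.03 and 35.5 CPM in the libraries labelled dKO and 16.2, 21.5 and 22.4 CPM in those labelled WT (log2 fold change 0.92 ± 0.15, edgeR adjusted p = 0.00566), and DESeq2 also called the gamma subunit Gng2 lower. Of 22 effectors of small GTPases and cyclic AMP, 2 were higher and 1 lower by edgeR, 4 were higher and 1 lower by DESeq2, and 7 were higher and 5 lower at an unadjusted p under 0.05. Arhgef12, an exchange factor that turns on RhoA below the alpha subunits of the G12 class, had 79.5, 68.4 and 72.8 CPM in the libraries labelled dKO and 44.1, 48.5 and 44.7 CPM in those labelled WT (log2 fold change 0.68 ± 0.10, edgeR adjusted p = 0.00484). Gnb4 and Arhgef12 were called in all 19 alternatives.

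The other 2 effectors called by edgeR break down cyclic AMP, the second messenger of Gpr65 and Gpr174, and they went in opposite directions. DESeq2 also called Pde4b, another phosphodiesterase gene, and Crem of the same list higher. By edgeR these were not called (log2 fold change 0.53, adjusted p = 0.0768 for Pde4b, and 1.14, adjusted p = 0.0801 for Crem). Pde4d read 204, 160.4 and 126 CPM in the libraries labelled dKO and 106, 88.3 and 102 CPM in those labelled WT (log2 fold change 0.72 ± 0.16, edgeR adjusted p = 0.0366). Pde7a read 138, 137 and 133 CPM in the libraries labelled dKO and 177, 169 and 206 CPM in those labelled WT (log2 fold change -0.44 ± 0.11, edgeR adjusted p = 0.0454). Pde4d was called in 14 of 19 alternatives, and with 1 library left out its edgeR adjusted p ran from 0.00885 to 0.122, and it was called without WT 1 or dKO 3. Pde7a was called in 11, and with 1 library left out its edgeR adjusted p ran from 0.0239 to 0.162, and it was called without WT 1 or WT 2. Several genes missed the threshold narrowly. Gnaq, an alpha subunit that opens calcium stores, had 33.5, 29.1 and 43.3 CPM in the libraries labelled dKO and 25.3, 20.6 and 15.01 CPM in those labelled WT (edgeR adjusted p = 0.0567). Abhd16a, a lipase that makes lysophosphatidylserine from phosphatidylserine, had 26.2, 26.9 and 20.6 CPM in the libraries labelled dKO and 35.5, 35.1 and 34.4 CPM in those labelled WT (edgeR adjusted p = 0.0513). Rgs10, which shuts off alpha subunits, had 58.7, 78.8 and 78.6 CPM in the libraries labelled dKO and 214, 119 and 127 CPM in those labelled WT (edgeR adjusted p = 0.0704). These 3 were named for their small p. None of them overlapped between the groups, beside 25.0% of all genes tested without overlap. With 1 library left out, edgeR called Gnaq (adjusted p 0.00999 to 0.179) and Rgs10 (0.00211 to 0.203) only without WT 1. Abhd16a was called in none of these fits (edgeR adjusted p 0.05002 to 0.136).

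Of 48 other genes with a Gpr symbol, 23 were tested and 0 were called by edgeR or by DESeq2 (1 higher and 2 lower at an unadjusted p under 0.05). Their median log2 fold change was -0.09, beside 0.41 for the 10 receptors. The 10 were chosen with results of these data known, so the gap between the medians is a description, and the median of the 10 is lower without WT 2 and with the Xist covariate, as given above.

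**Figure D4:**
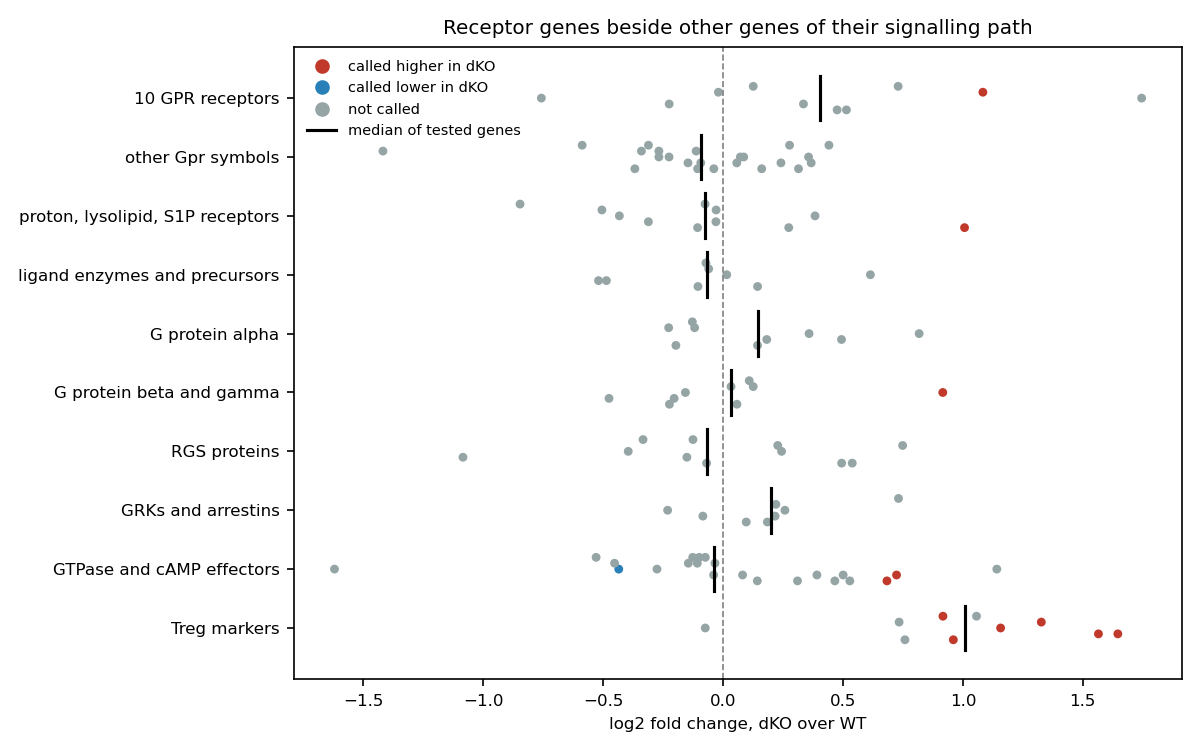
Log2 fold change of dKO over WT for each tested gene (points) of the 10 receptors, the other Gpr symbols, the 7 pathway lists and the Treg markers, with black bars at the medians. Called genes are red where higher in dKO and blue where lower; most pathway lists have a median near 0, against 1.01 for the Treg markers.

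The genes whose pattern over the 6 libraries was most like that of Gpr65 and Gpr132, the receptors with the smallest p, were found by the root-mean-square difference of mean-centred log2 CPM among 9508 genes of at least 10 CPM on average. For Gpr65 these were N4bp1 (0.0786 log2 units), Il2ra (0.111) and Nrip1 (0.121), where the median over genes was 0.584. Il2ra encodes the high-affinity chain of the interleukin-2 receptor, a Treg marker, and read 126, 89.4 and 95.3 CPM in the libraries labelled dKO, against 59.8, 51.3 and 48.5 CPM in those labelled WT (edgeR adjusted p = 0.00385). As for Gpr65, dKO 1 was its highest library and the WT libraries lay close together. For both receptors the genes were picked by likeness over these same 6 libraries, so a shared shape or direction follows from the choice. For Gpr132 the nearest genes were Anxa11 (0.0539 log2 units), Birc3 (0.0588) and Usp38 (0.0644), beside a median of 0.350 over genes. N4bp1 was called higher (edgeR adjusted p = 0.00194), and Nrip1, Anxa11 and Usp38 were not called (edgeR adjusted p = 0.0733, 0.068 and 0.0713). Birc3, an inhibitor of cell death below tumour necrosis factor receptors, was called higher at 175, 190.5 and 138 CPM in the libraries labelled dKO and 107, 112 and 123 CPM in those labelled WT (edgeR adjusted p = 0.0319; 0.0148 to 0.149 with 1 library left out, and called then without WT 1 or dKO 3).

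Markers of other cells were set beside these results. Besides the Treg markers given above, 2 of 9 Th17 markers were lower in dKO, with a summed level of 41.4 to 97.7 CPM in the libraries labelled dKO, against 102 to 242 CPM in those labelled WT, and 0 of 8 naive markers were called. Macrophage and Kupffer cell markers, of cells that can carry Gpr132 and Gpr65, summed to 4.96 to 9.25 CPM in the libraries labelled dKO, against 4.26 to 5.78 CPM in those labelled WT, with 0 of 2 tested called and Adgre1, C1qa, C1qb, Vsig4 and Marco at 0 in every library. B cell markers, of cells rich in Gpr183, summed to 17.3 to 23.4 CPM in the libraries labelled dKO, against 14.7 to 18.3 CPM in those labelled WT, with 0 of 5 tested called. Dendritic cell markers summed to 50.005 to 56.1 CPM in the libraries labelled dKO, against 45.1 to 84.2 CPM in those labelled WT, with 2 of 6 tested lower, and NK cell markers to 116 to 138 CPM in the libraries labelled dKO, against 113 to 177 CPM in those labelled WT, with 0 of 4 called. Hepatocyte markers summed to 22.6 to 33.8 CPM in the libraries labelled dKO, against 7.84 to 16.8 CPM in those labelled WT, with 0 of 3 tested called by edgeR. Most of that sum was Trf, the transferrin gene, at 27.8, 21.4 and 14.5 CPM in the libraries labelled dKO and 4.13, 7.66 and 10.7 CPM in those labelled WT, while albumin (Alb) had at most 2.53 CPM. Genes induced by tissue dissociation summed to 5482 to 9871 CPM in the libraries labelled dKO, against 4832 to 18329.6 CPM in those labelled WT, with 0 of 10 called. The part of these cells in the receptor values was not tested. DESeq2 called 2 of the NK cell markers lower and 1 hepatocyte marker (Trf) higher, and 0 of the B cell, macrophage, naive or dissociation genes, of which 1 B cell marker passed an unadjusted p under 0.05.

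**Figure D5:**
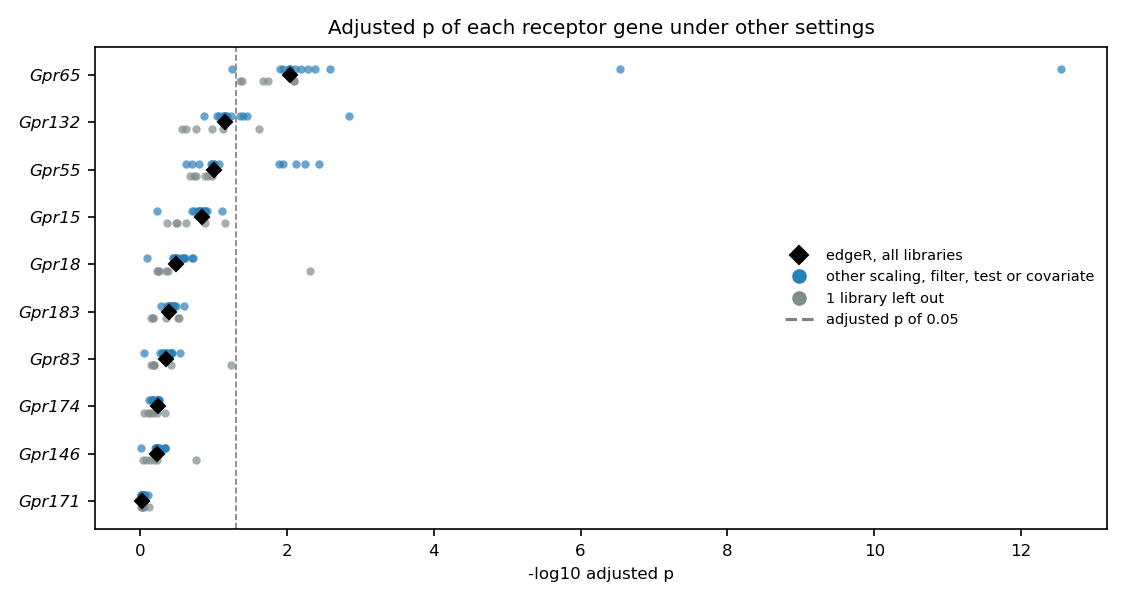
Adjusted p of each receptor gene as -log10 (to the right of the dashed line is past 0.05), with black diamonds for edgeR on all libraries, blue points for 13 other scalings, filters, tests or covariates and grey points for 6 fits that leave out 1 library. Gpr65 stays right of the line in 18 of 19, Gpr132 and Gpr55 cross it in 5 each and Gpr18 in 1. The blue points include the fit on recovered reads, which repeats the main fit.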

How the data were processed

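CD4+ T cells were sorted by flow cytometry from livers, and single-end libraries were made with a fragmentation-based NEBNext kit. The authors deposited raw read counts per gene for 6 libraries; per the labels, reads were trimmed with cutadapt and mapped with Bowtie2, and both mm10 and GRCm39 are named as builds. Versions, the counting tool, its annotation and whether strand was used are not stated in those sources. A second sheet that the authors deposited as TPM holds CPM: all 170580 of its values gave back the count within 0.01 reads, so it was used as CPM and carries no correction for length.

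Counts were tested with edgeR 4.0.16 in R 4.3.3. Genes were kept by filterByExpr (minimum count 10, minimum total 15), scaled by TMM and fitted with the robust quasi-likelihood test on the 3 dKO against the 3 WT libraries, with no covariate. Scale factors ran between 0.964 and 1.04, and the common biological coefficient of variation was 14.5%. Each SE is the log2 fold change divided by the root of its F value. The same steps were also run on simulated counts. Those had the same dispersion for every gene, so they do not show how the test behaves on these libraries. No 2 libraries of 1 group differed by as little as sampling noise. The study calls its replicates independent and biological; whether each is 1 mouse or a pool is not stated.

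The alternatives were 3 other scalings, 2 other filters, DESeq2 1.42.0, limma 3.58.1 (voom, and log2 of CPM plus 1 or 0.1), a non-robust fit, the replicate number as a block, leaving out each library, and, chosen after the data were seen, reads recovered from the CPM sheet and the Xist level as a covariate. The recovered reads were the same counts, so that fit repeats the main one and its agreement was fixed in advance. It is still counted among the 19 alternatives. The CPM sheet stood in for the normalised values assumed at first. Earlier results of these data were known when the 10 receptors, the lists and the naming rule were set. Genes named are the receptors, the Nr4a genes, the genes called in each list (or those of smallest p, up to 3), markers, overlapping or neighbouring genes and the 3 nearest patterns. Promoters are from RefSeq (GRCm38.p6). Some genes of these lists are not reported here. Exon lengths are from GENCODE, and since the build used for counting is not certain they may differ from those counted.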

Additional observations from a re-analysis of the deposited data

How the results depend on the processing

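With no filter on low counts 756 genes were higher and 560 lower, against 337 higher and 183 lower by edgeR with the filter. With DESeq2 509 were higher, 67.0% of the genes it called in either direction. Leaving out 1 library gave 90 to 447 genes higher and 42 to 378 lower, the fewest without dKO 1, with 90 and 42. Receptors called higher numbered 3 with DESeq2 (Gpr55, Gpr65 and Gpr132), and 2 with library totals alone and with no filter (Gpr65 and Gpr132) and with limma-voom, limma on log2 of CPM plus 1 or 0.1 and the non-robust fit (Gpr55 and Gpr65). Of all 15694 genes tested, 363 were higher with library totals alone, 344 with limma-voom and 351 with the non-robust fit. On log2 of CPM plus 1 or 0.1 they numbered 383 and 331. With no filter, 27108 genes were tested. Leaving out 1 library gave 1 to 2, and with 1 library missing the arm of 2 is assumed to vary like the other. With the Xist covariate the receptor called was Gpr132, beside 430 genes called higher of all 15694 tested. No receptor was called lower under any alternative.

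The sign turned for Gpr171 (-0.02 by edgeR on all libraries, 0.0991 with the Xist covariate, -0.084 to 0.0516 leaving out 1 library), Ubac2 (0.02 on all libraries, -0.0117 with upper-quartile scaling, -0.00115 with library totals, -0.144 with the Xist covariate, -0.0578 to 0.127 leaving out 1 library), Napepld (-0.49 on all libraries, 0.0693 with the Xist covariate) and Gnas (-0.23 on all libraries, 0.0473 with the Xist covariate). The cause was not tested. Of 832 values for 44 named genes, 735 kept their direction and their side of the threshold. These include the values from recovered reads, which repeat the main fit.

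Correlations of deviations were -0.0818 to 0.0496 between libraries of the same replicate number and -0.0952 to 0.0941 between libraries of different numbers. With 3 libraries in each group they cannot settle whether the libraries were paired. With the replicate block 307 genes were higher and 184 lower, and Gpr65 was the receptor called (log2 fold change 1.05, edgeR adjusted p = 0.00259). Depth limits Gpr15 and Gpr83 most, with 25 and 21 reads in their lowest libraries.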

Other observations

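Among the tested genes that overlap a receptor or lie next to it, Gm41905 was the one called, as given above for Gpr55. Galc, a lysosomal galactosylceramidase gene on the left of Gpr65, read 22.4, 15.97 and 13.4 CPM in the libraries labelled dKO, against 9.63, 12.1 and 11.3 CPM in those labelled WT, without a call (log2 fold change 0.63 ± 0.20, edgeR adjusted p = 0.111). Its libraries labelled dKO lay above all those labelled WT, and 25.0% of all genes tested had no overlap in either direction. Beside Gpr83, Izumo1r, a folate receptor family gene of Tregs, read 151, 158 and 243 CPM in the libraries labelled dKO and 170.1, 177 and 131 CPM in those labelled WT, with dKO 3 the highest, as for Gpr83. It was not called (edgeR adjusted p = 0.626).

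Gpr18 and Gpr183 lie within the span of Ubac2, a ubiquitin-associated gene of the endoplasmic reticulum, which read 80.6, 86.2 and 84.4 CPM in the libraries labelled dKO, against 95.4, 79.04 and 73.6 CPM in those labelled WT, and Gpr18 also overlaps Gm46485. Gpr171 lies within Med12l, which had at most 30 reads in a library. On either side of Gpr15, Cpox had a log2 fold change of 0.01 and Cldnd1 of -0.16, neither called by edgeR.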
